A study of Homo sapiens with 24 samples.

Results

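The genes described here encode the nuclear lamins and their partners at the inner nuclear membrane, LMNB1, LMNB2, LMNA, TMPO and EMD, and the high mobility group (HMG) chromatin proteins HMGB1, HMGB2, HMGA1 and HMGA2. They are 9 of the 48162 genes in each table, and each symbol had 1 row. The set was chosen by one measured value: in HPNE cells given PANC-1 vesicles, LMNB1 had the lowest log2 difference against residual medium of all 11503 genes tested. The other 8 genes were added for their relation to it, so that comparison is described below without a test. The study used RNA-seq to ask what extracellular vesicles (EV) of pancreatic cancer cells do to gene expression in pancreas cells that are not tumour cells. The recipients were hTERT-HPNE (HPNE), a pancreas line immortalised with telomerase, and HPDE-H6c7 (HPDE), an immortalised pancreatic duct epithelial line, each a single line. Both were grown in serum-free keratinocyte medium and RNA was taken 24 h after treatment. Each line had 4 groups of 3 libraries, described as biological triplicates: untreated cells in fresh serum-free medium, cells in residual medium left after vesicle isolation (the negative control), and cells given vesicles, 1e10 per well, of PPCL-68 cells or of the pancreatic carcinoma line PANC-1. The labels do not say which cells the residual medium came from, nor how many vesicle preparations were used.

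Lamins are intermediate filament proteins that polymerise into a meshwork, the lamina, beneath the inner nuclear membrane. B-type lamins (LMNB1 and LMNB2) keep a lipid anchor and stay with the membrane, whereas LMNA gives rise to lamins A and C, which are more soluble and set much of the stiffness of the nucleus. TMPO encodes the lamina-associated polypeptides 2 and EMD encodes emerin, both proteins of the LEM-domain family that join the lamina to chromatin. HMGB proteins bend DNA without sequence preference, and HMGB1 can leave the cell and act as an alarm signal. HMGA proteins bind the minor groove of AT-rich DNA; HMGA1 and HMGA2 are abundant in embryonic and tumour cells, and HMGA2 mRNA is a well-known target of the let-7 miRNAs. Loss of LMNB1 mRNA is a familiar mark of cells that have stopped dividing for good.

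RefSeq listed start sites for 7 of the 9 genes on GRCh38.p14. The 250 bases before 1 start are shown for LMNB1, TMPO and HMGB1, whose levels fell together in HPDE, and for LMNA, which fell in both lines. LMNB2 fell in HPDE as well. Its 1 listed start matches no GENCODE transcript start, and its window is not printed. RefSeq lists 2 starts for LMNB1, 3 for HMGB1, 3 for LMNA and 2 for TMPO. The start printed for LMNB1, LMNA and TMPO is the one that matches a GENCODE transcript start, and for HMGB1, where all 3 do, the first listed. The windows are those of LMNB1 (chr5:126776373-126776622, plus strand), TMPO (chr12:98515340-98515589, plus strand), HMGB1 (chr13:30465937-30466186, minus strand) and LMNA (chr1:156082323-156082572, plus strand). Capitals mark the letters searched for on both strands: TTTGAA and TTCGAA, as in cell-cycle gene homology regions, CCAAT, and TTTCCCGC, TTTCGCGC, TTTGCCGC and TTTGGCGC, forms of the E2F site. None of these motifs overlaps another in the windows shown.
LMNB1: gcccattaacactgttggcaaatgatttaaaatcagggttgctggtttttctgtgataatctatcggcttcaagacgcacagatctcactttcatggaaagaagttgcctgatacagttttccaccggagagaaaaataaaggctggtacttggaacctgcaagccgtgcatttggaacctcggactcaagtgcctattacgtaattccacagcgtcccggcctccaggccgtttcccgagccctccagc
TMPO: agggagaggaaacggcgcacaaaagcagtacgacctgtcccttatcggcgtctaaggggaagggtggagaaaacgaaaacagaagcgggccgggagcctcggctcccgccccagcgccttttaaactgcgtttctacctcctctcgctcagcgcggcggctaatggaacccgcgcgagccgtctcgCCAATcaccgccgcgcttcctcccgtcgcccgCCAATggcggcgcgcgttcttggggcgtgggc
HMGB1: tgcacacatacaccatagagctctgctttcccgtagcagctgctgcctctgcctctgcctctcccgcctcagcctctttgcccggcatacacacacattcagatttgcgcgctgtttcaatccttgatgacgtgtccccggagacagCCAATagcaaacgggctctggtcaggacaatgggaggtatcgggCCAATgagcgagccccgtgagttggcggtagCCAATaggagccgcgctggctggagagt
LMNA: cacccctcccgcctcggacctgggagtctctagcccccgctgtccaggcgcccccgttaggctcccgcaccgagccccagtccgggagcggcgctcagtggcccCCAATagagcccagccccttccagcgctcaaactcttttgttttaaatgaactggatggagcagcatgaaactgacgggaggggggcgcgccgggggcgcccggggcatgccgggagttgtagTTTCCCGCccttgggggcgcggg
The LMNB1 window held none of these letters. TMPO held CCAAT 64 and 32 bases before its start, HMGB1 held it 103, 59 and 28 bases before, and LMNA held it 146 bases before, with TTTCCCGC 23 bases before. Of 35116 RefSeq windows of the same length, 32.0% held CCAAT on either strand, 14.3% held TTTGAA or TTCGAA, and 1.39% held TTTCCCGC. The letters found depend on the start: the window of the other LMNB1 start held CCAAT 138 bases before it, on the other strand. That of the second HMGB1 start held TTTGAA 246 bases before it and CCAAT 115 bases before it on the other strand, and the windows of the third HMGB1 start and of the other 2 LMNA starts held none. The LMNB2 window held TTTGAA 246 bases before its start. These matches describe the letters only.

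Each library had 29209142 to 46490312 reads assigned to genes, and the fewest reads on any of the 9 genes in any library were the 240 on LMNB1 in PPCL-68 EV replicate 1 of HPNE. Values are FPKM, reads scaled for gene length and library depth, which can be compared between genes. HPDE expressed all 9 epithelial markers examined, with summed levels of 1806 to 4919 FPKM. HPNE, labelled a normal pancreas cell, had 4.74 to 13.6 FPKM over the same 9 genes, with 6 or 7 of them under 1 FPKM in every library of a group, and 10143 to 15768 FPKM over 8 mesenchymal markers. Acinar, endocrine, immune and endothelial markers reached at most 0.225 FPKM in any library, and PRSS1, CELA3A and INS were at 0. In every HPNE group 1 library stood apart from the other 2 over all genes, at a distance 2.03 to 3.20 times that within the nearer pair, where HPDE groups had 1.08 to 1.25 times. These were replicate 3 of the untreated and residual medium groups and replicate 1 of both vesicle groups. HPNE results are therefore also given without them.

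The 9 genes differed between the untreated lines, all in 1 direction but for LMNA. LMNB1, the B-type lamin that gave the set, had 3.65, 3.43 and 8.29 FPKM in the untreated HPNE libraries (replicates 1 to 3, the order used throughout) and 42.3, 42.0 and 42.9 FPKM in HPDE. HMGA2 had 26.3, 25.6 and 30.2 FPKM in HPNE and 133, 138 and 142 in HPDE. Both genes were far higher in every untreated HPDE library than in any untreated HPNE library. LMNA ran the other way, with 249, 245 and 253 FPKM in HPNE and 179.7, 191 and 185 in HPDE. All 9 genes passed the test between the lines (limma, adjusted p under 0.05), 8 higher in HPDE, but so did 84.0% of the 13243 genes tested, whose median difference was 0.38 on the log2 scale. That median came to 0.080 after division by size factors, a shift of more than 0.1, so the line differences are read against it. LMNB1 was 2.91 higher in HPDE on the log2(FPKM + 1) scale (SE 0.31), HMGA2 2.29, TMPO 2.24, HMGB2 2.19, LMNB2 1.90 and HMGA1 1.81. EMD differed by 1.10, with 0.70 by voom, and LMNA by -0.42, with -0.79 under size factors. HMGB1 differed by 0.60, and lost its call under size factors (0.24) and by voom (0.20).

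**Figure D1:**
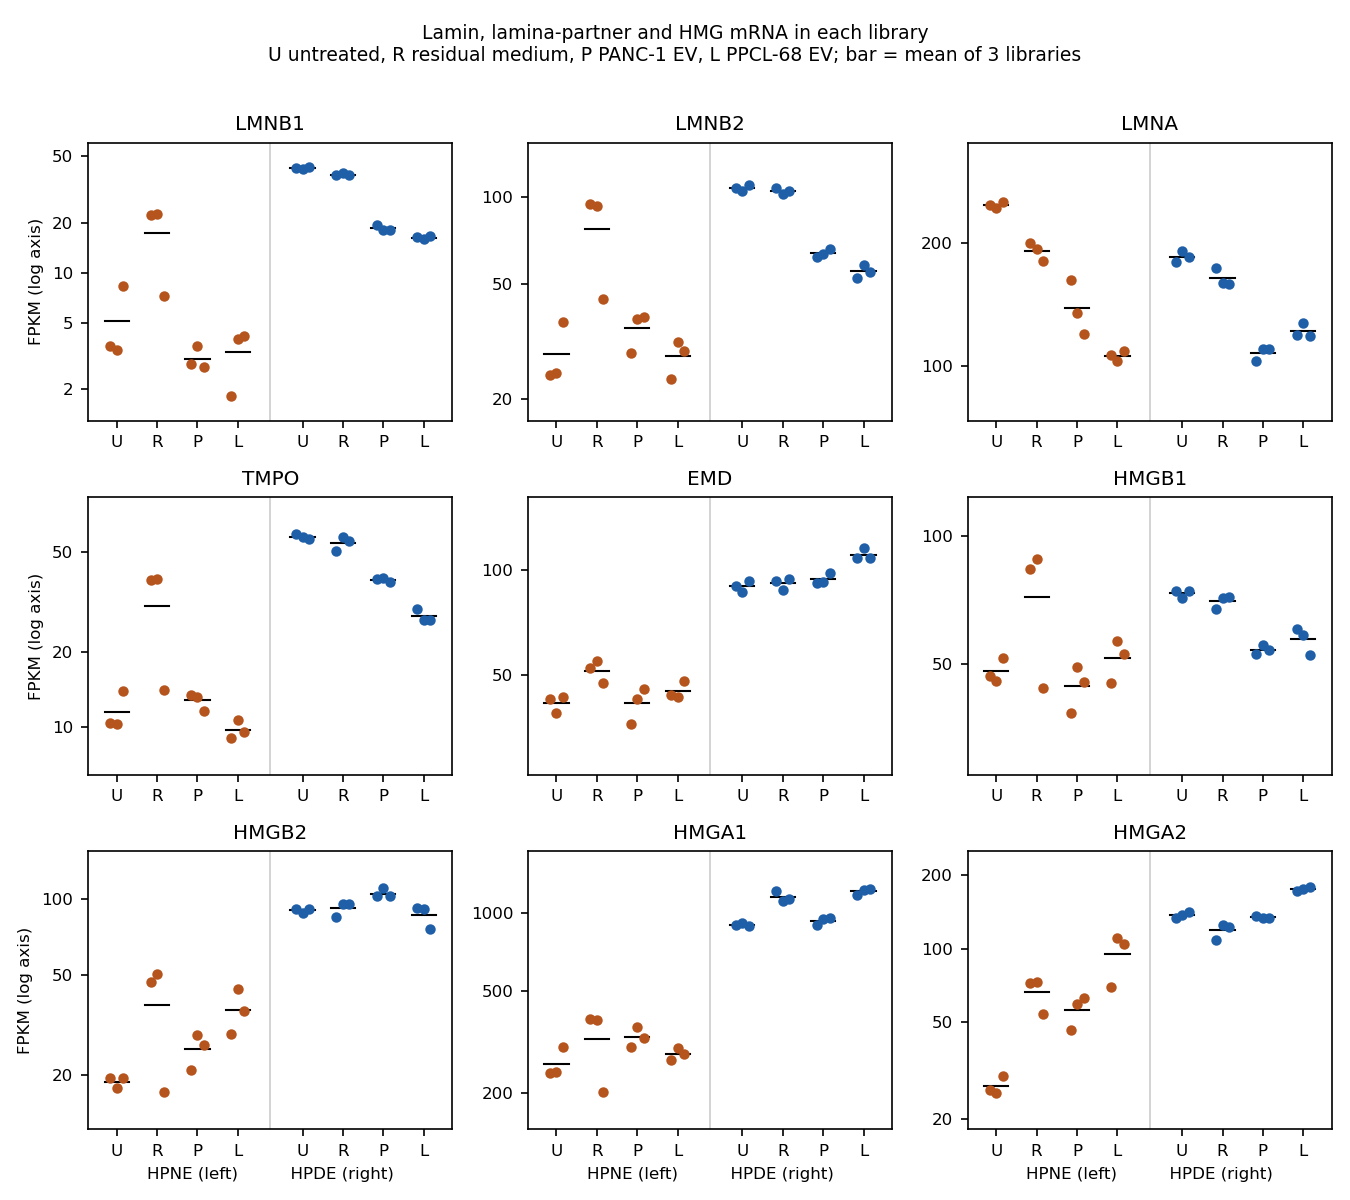
FPKM on a log axis for each of the 9 genes in each of the 24 libraries, HPNE at the left of each panel in orange and HPDE at the right in blue; each point is a library and each black bar the mean of 3. In HPDE, LMNB1, LMNB2, LMNA, TMPO and HMGB1 sat lower with both vesicle types than in both controls, while in HPNE 2 of the 3 residual medium libraries stood high for LMNB1, LMNB2, TMPO, HMGB1 and HMGB2.

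Vesicle effects on the lamins were clearest in HPDE, a line that the choice of genes did not use. LMNB1 had 38.5, 39.5 and 38.4 FPKM in residual medium, 19.3, 18.0 and 18.1 after PANC-1 EV and 16.3, 15.9 and 16.6 after PPCL-68 EV. Every vesicle library lay below every control library, and the mean was 2.10-fold lower after PANC-1 EV and 2.38-fold lower after PPCL-68 EV than in residual medium. The log2 differences were -1.03 (SE 0.040, adjusted p = 5.7e-11) and -1.20 (SE 0.040, adjusted p = 9.23e-12) by limma, and only 0.704% and 1.02% of the genes tested had lower or equal values. LMNB2 had 107, 102 and 105 FPKM in residual medium, 61.9, 63.7 and 66.2 after PANC-1 EV and 52.6, 58.0 and 55.1 after PPCL-68 EV. It fell with both, by 0.70 and 0.91 on the log2 scale (limma, adjusted p = 7.64e-09 and 3.12e-10). LMNA had 174, 159 and 159 FPKM in residual medium, 103, 110.1 and 109.6 after PANC-1 EV and 119, 127 and 118 after PPCL-68 EV. It fell in both comparisons, by 0.60 (SE 0.049, adjusted p = 1.13e-07) and 0.43 (SE 0.049, adjusted p = 2.39e-06) by limma. In bulk RNA a lower level can come from less RNA per cell or from fewer cells that hold it, and these cannot be told apart here.

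Over the set, 8 of 9 genes passed the test in HPDE between PANC-1 EV and residual medium (2 higher, 6 lower), where 63.3% of the 12223 genes tested passed. The median difference of the 9 was -0.37, against -0.041 for all genes. Between PPCL-68 EV and residual medium 7 of 9 passed (2 higher, 5 lower), where 67.7% of all genes did, with medians of -0.30 and -0.032. The 9 epithelial markers moved in the same libraries: 7 of 9 fell after PANC-1 EV and 8 of 9 after PPCL-68 EV (none rose), and their summed level was 4142 to 4702 FPKM in residual medium, 2485 to 2834 after PANC-1 EV and 1806 to 1876 after PPCL-68 EV. The part of that shift in the values of the lamins and HMG genes was not tested. The share of reads from mitochondrial genes was lower in all 6 HPDE vesicle libraries (0.362 to 0.775%) than in all 6 control libraries (0.872 to 1.25%), and its part was not tested either.

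The lamina partners split. TMPO had 50.4, 57.4 and 55.1 FPKM in residual medium, 39.0, 39.5 and 37.9 after PANC-1 EV and 29.5, 26.9 and 26.7 after PPCL-68 EV. Its level fell with both vesicle types, in separate steps with no overlap between the 3 groups: by 0.47 (SE 0.052, adjusted p = 2.32e-06) and by 0.95 (SE 0.052, adjusted p = 1.16e-09) (limma). EMD had 93.0, 87.6 and 94.3 FPKM in residual medium, 92.0, 92.4 and 97.8 after PANC-1 EV and 108, 116 and 108 after PPCL-68 EV. With PANC-1 EV the EMD groups overlapped and the difference was 0.038 (SE 0.047, adjusted p = 0.498), while with PPCL-68 EV it rose by 0.27 (SE 0.047, adjusted p = 0.000129) by limma.

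The 2 HMGB genes also parted. HMGB1 had 67.3, 71.4 and 72.0 FPKM in residual medium, 52.7, 55.3 and 53.9 after PANC-1 EV and 60.3, 58.4 and 52.6 after PPCL-68 EV. It fell with both, by 0.37 and 0.30 on the log2 scale (limma, adjusted p = 1.64e-05 and 0.000111). HMGB2, the HMGB form best known from dividing cells, had 84.7, 95.7 and 95.2 FPKM in residual medium, 102, 110.1 and 102 after PANC-1 EV and 91.9, 91.3 and 76.2 after PPCL-68 EV. With PANC-1 EV it stood above every control library, 0.19 (SE 0.068, adjusted p = 0.0231) by limma, a call lost without PANC-1 EV replicate 2 (0.16), without residual replicate 1 (0.13) and with no filter on low values. With PPCL-68 EV the groups overlapped, with a difference of -0.089 (SE 0.068, adjusted p = 0.258). The ratio of HMGB2 to HMGB1 FPKM within a library was 1.23 ± 0.00532 untreated, 1.31 ± 0.0432 in residual medium, 1.94 ± 0.0467 after PANC-1 EV and 1.51 ± 0.0591 after PPCL-68 EV (mean ± SD, n = 3). These 4 groups of ratios did not overlap.

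HMGA1 was the most abundant of the 9 genes in every HPDE group and HMGA2 differed in its response. HMGA1 had 900.4, 919 and 897 FPKM untreated, 1227, 1120.3 and 1140.1 in residual medium, 897, 949 and 959 after PANC-1 EV and 1183, 1233 and 1246 after PPCL-68 EV. Residual medium and PPCL-68 EV were high and the other 2 groups low. Against residual medium the HMGA1 difference was -0.31 (SE 0.052, adjusted p = 0.000113) for PANC-1 EV and 0.071 (SE 0.052, adjusted p = 0.239) for PPCL-68 EV by limma. HMGA2 had 133, 138 and 142 FPKM untreated, 109, 125 and 123 in residual medium, 136, 134 and 133 after PANC-1 EV and 172, 175 and 179 after PPCL-68 EV. The PPCL-68 EV libraries stood above all others, 0.56 (SE 0.050, adjusted p = 1.92e-07) over residual medium by limma. With PANC-1 EV the rise was 0.18 (SE 0.050, adjusted p = 0.00613), and 0.12 without residual replicate 1.

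**Figure D2:**
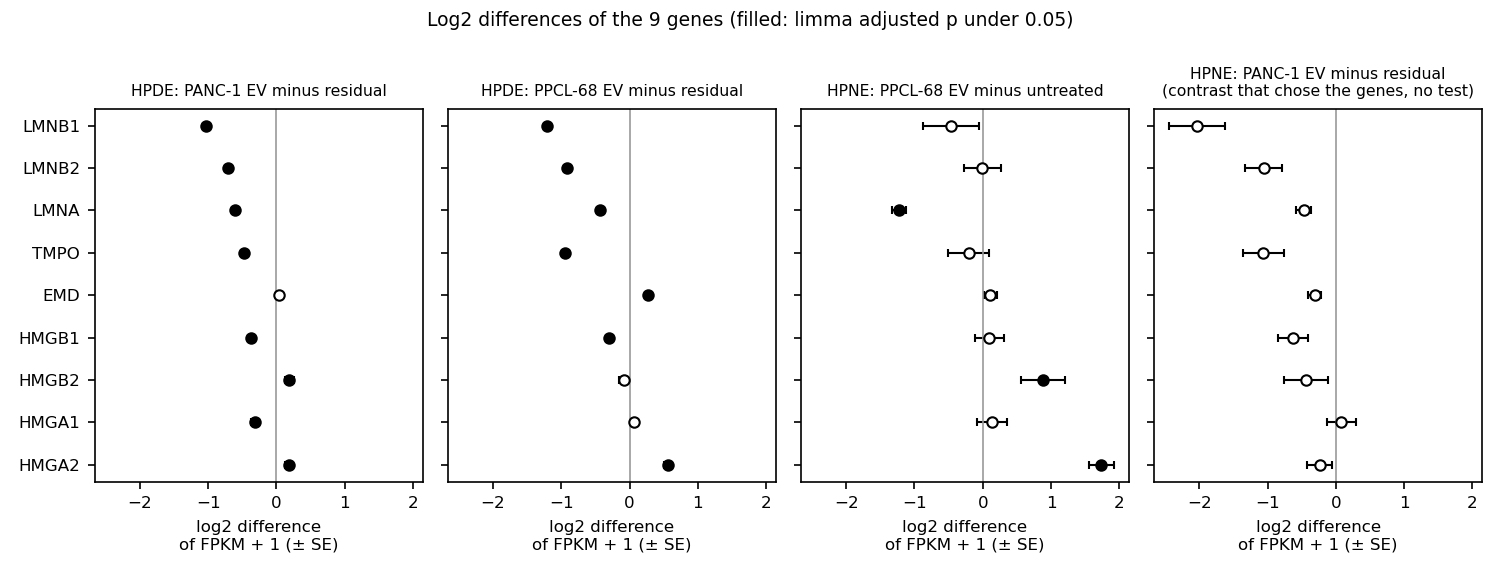
Log2 differences of FPKM + 1 with their standard errors for the 9 genes in 4 comparisons; filled points passed the limma test at an adjusted p under 0.05, and the panel at the right is the untested comparison that chose the set. LMNB1, LMNB2, LMNA, TMPO and HMGB1 lay below 0 in both HPDE panels, and in HPNE with PPCL-68 EV against untreated cells LMNA lay at -1.23 and HMGA2 at 1.74.

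Against untreated HPDE cells the lamins gave the same picture. LMNB1 was lower by 1.16 after PANC-1 EV and by 1.33 after PPCL-68 EV on the log2 scale (limma, adjusted p = 1.14e-11 and 2.01e-12). In all, 6 of 9 genes passed with PANC-1 EV (1 higher, 5 lower; 60.6% of all genes) and 8 of 9 with PPCL-68 EV (3 higher, 5 lower; 66.3% of all genes). The 5 lower genes were LMNB1, LMNB2, LMNA, TMPO and HMGB1 in each. HMGB2 was higher with PANC-1 EV, 0.22 (SE 0.068, adjusted p = 0.0116) by limma, a call lost without PANC-1 EV replicate 2 (0.18) and with no filter. EMD, HMGA1 and HMGA2 were the 3 higher with PPCL-68 EV, by 0.30, 0.43 and 0.35. With PANC-1 EV, HMGA1 differed from untreated cells by 0.046 and HMGA2 by -0.030, neither past the test, and the HMGA2 sign turned under size factors (0.018) and by voom (0.015). The vesicle libraries are shared with the comparisons against residual medium.

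Residual medium alone moved 4 of the 9 genes past the threshold in HPDE, by 0.36 or less on the log2 scale. For HMGA1, 96.7% of the genes tested had a lower or equal value. HMGA1 rose by 0.36 (SE 0.052, adjusted p = 0.000304) against untreated cells by limma, and HMGA2 fell by 0.21 (SE 0.050, adjusted p = 0.0103). LMNA fell by 0.18 (SE 0.049, adjusted p = 0.022), a call lost without untreated replicate 2 (-0.15) or 3 (-0.18), without residual replicate 2 (-0.16) or 3 (-0.15), and with no filter. LMNB1 fell by 0.13 (SE 0.040, adjusted p = 0.0403), a call lost without any 1 of the 6 libraries (-0.14 to -0.12), under size factors, by voom and with the replicate block. These 4 of 9 stood beside 20.0% of all genes, and the other 5 genes did not pass.

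The 2 vesicle types were compared directly in HPDE, where 8 of 9 genes passed (4 higher, 4 lower with PPCL-68 EV) beside 50.1% of all genes. TMPO was lower with PPCL-68 EV by 0.47 (SE 0.052, adjusted p = 4.92e-06), HMGB2 by 0.28, LMNB2 by 0.21 and LMNB1 by 0.17 (limma). LMNA ran opposite to the B-type lamins, 0.18 (SE 0.049, adjusted p = 0.00856) higher with PPCL-68 EV. HMGA1 and HMGA2 were both 0.38 higher (limma, adjusted p = 3.3e-05 and 2.63e-05) and EMD 0.23 higher. HMGB1 differed by 0.077 (SE 0.050, adjusted p = 0.22) by limma, and passed without PPCL-68 EV replicate 3 (0.13). Vesicle number per well was the same for both types.

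In HPNE the comparison that chose the set is given as a description. LMNB1 had 22.3, 22.5 and 7.23 FPKM in residual medium and 2.83, 3.62 and 2.71 with PANC-1 EV, a log2 difference of -2.03 (SE 0.41). The first 2 residual libraries were high and the third was near the untreated libraries. LMNB2 differed by -1.06, TMPO by -1.06, LMNA by -0.47 and EMD by -0.31. In this comparison 24.2% of all genes passed the test, a share that says nothing of these untested values. HMGB1 differed by -0.63, HMGB2 by -0.44, HMGA2 by -0.24 and HMGA1 by 0.079, and the groups of these 4 overlapped. Without residual replicate 3 the LMNB2 value was -1.41, TMPO -1.53, HMGB1 -0.95, HMGB2 -0.92 and HMGA1 -0.23.

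PPCL-68 EV against untreated cells is the HPNE comparison that shares no library with that choice, and there LMNA and HMGA2 moved while LMNB1 did not pass. LMNA had 249, 245 and 253 FPKM untreated and 106, 102 and 109 with PPCL-68 EV. It was 2.35-fold lower in mean FPKM, with no overlap, -1.23 (SE 0.11, adjusted p = 1.42e-05) by limma. HMGA2 had 26.3, 25.6 and 30.2 FPKM untreated and 69.9, 111 and 105 with PPCL-68 EV. It was 3.48-fold higher, again with no overlap, 1.74 (SE 0.18, adjusted p = 5.02e-05) by limma, and 99.1% of genes tested had a lower or equal value. LMNB1 had 1.82, 3.99 and 4.19 FPKM with PPCL-68 EV, overlapping the untreated libraries, and differed by -0.47 (SE 0.41, adjusted p = 0.386). Its sign turned without the 4 libraries that stood apart (0.16). HMGB2 had 19.4, 17.7 and 19.5 FPKM untreated and 29.1, 43.7 and 35.8 with PPCL-68 EV, and rose by 0.89 (SE 0.32, adjusted p = 0.0441) by limma. The HMGB2 call was lost without any 1 of untreated replicates 1 to 3 (0.91, 0.85 and 0.91), without PPCL-68 EV replicate 2 (0.75) or 3 (0.89), and with no filter.

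These were 3 of 9 genes (2 higher, 1 lower), where 42.5% of 11503 genes passed, with a median difference of 0.10 beside -0.053 for all genes. LMNB2 had 24.1, 24.6 and 36.9 FPKM untreated and 23.5, 31.4 and 29.3 with PPCL-68 EV, a difference of -0.0078 whose sign turned under size factors and by voom. TMPO (-0.21), EMD (0.11), HMGB1 (0.10) and HMGA1 (0.13) did not pass. Without the library apart in each group 6 of 9 passed, beside 69.6% of all genes, with LMNB2 (0.30), HMGB1 (0.24) and HMGA1 (0.28) added. Removing the farthest library of each group narrows the spread by construction. Of the 8 mesenchymal markers 5 fell and 0 rose in this comparison, and their summed level was 14154 to 15768 FPKM untreated and 10388 to 11913 with PPCL-68 EV, with an untested part in these values. The mitochondrial share of reads was 1.13 to 2.63% untreated and 0.891 to 1.09% with PPCL-68 EV, and its part was not tested.

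The other HPNE comparisons share residual medium or PANC-1 EV libraries with the choice of the set, so LMNB1 is only described in them. In residual medium against untreated cells LMNB1 differed by 1.52, and the groups overlapped through residual replicate 3. LMNB2 had 94.8, 93.2 and 44.2 FPKM in residual medium and rose by 1.36 (SE 0.27, adjusted p = 0.00317) by limma. TMPO had 38.5, 38.8 and 14.1 FPKM there and rose by 1.21 (SE 0.30, adjusted p = 0.00884). In both, replicates 1 and 2 were high and replicate 3 lay nearer to the untreated libraries. HMGA2 had 72.2, 72.9 and 54.2 FPKM and rose by 1.24 (SE 0.18, adjusted p = 0.000653) by limma, with all 3 residual libraries above all untreated ones. LMNA fell by 0.38 (SE 0.11, adjusted p = 0.0162), a call lost without untreated replicate 1 (-0.38) and under size factors (-0.25). EMD rose by 0.30 (SE 0.10, adjusted p = 0.0295), a call lost without untreated replicate 1 (0.32) or 2 (0.25), without residual replicate 1 (0.29) or 2 (0.25), and with no filter.

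The 5 of 8 genes that passed there (4 higher, 1 lower) stood beside 43.9% of all genes. HMGB1 had 83.4, 88.1 and 44.0 FPKM in residual medium, HMGB2 46.6, 50.4 and 17.1 and HMGA1 388, 385 and 202. In each, replicates 1 and 2 lay above every untreated library and replicate 3 below every untreated library. Over all 3 libraries their differences were 0.51, 0.83 and 0.27, and none passed. Without residual replicate 3 all 3 did, at 0.82, 1.32 and 0.58, which made 8 of 8, beside 52.7% of all genes. HMGB1 and HMGB2 also passed under size factors and by voom.

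With PPCL-68 EV against residual medium in HPNE, LMNB1 differed by -1.98. LMNB2, TMPO and LMNA fell, by 1.36, 1.42 and 0.85 (limma, adjusted p = 0.00292, 0.00403 and 0.000228), and no other gene of the 8 passed (3 of 8, beside 39.9% of all genes). HMGA2 was 0.50 higher at an adjusted p of 0.05002, which lay just above the threshold, and passed without PPCL-68 EV replicate 1 (0.70). HMGB2 differed by 0.054, and its sign turned without residual replicate 3 (-0.43) or PPCL-68 EV replicate 2 (-0.088). Without residual replicate 3, HMGB1 (-0.73), HMGB2 and HMGA1 (-0.45) passed too, 6 of 8 beside 47.0% of all genes.

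With PANC-1 EV against untreated HPNE cells, LMNA and HMGA2 were the 2 of 8 genes that passed, beside 21.1% of all genes. LMNA had 163, 135 and 119 FPKM with PANC-1 EV and fell by 0.85 (SE 0.11, adjusted p = 0.000536) by limma. HMGA2 had 46.4, 59.5 and 62.9 FPKM and rose by 1.01 (SE 0.18, adjusted p = 0.00402). LMNB1 differed by -0.52, LMNB2 by 0.30, TMPO by 0.15, HMGB2 by 0.40 and HMGA1 by 0.35. Of these, LMNB1, LMNB2 and TMPO overlapped the untreated libraries. Without the libraries apart 6 of 8 passed, beside 62.7% of all genes, adding LMNB2 (0.62), TMPO (0.24), HMGB2 (0.54) and HMGA1 (0.52). Between the vesicle types HMGA2 was 0.73 (SE 0.18, adjusted p = 0.0431) higher with PPCL-68 EV by limma, 1 of 8 genes beside 5.47% of all genes. That call was lost without PANC-1 EV replicate 1 (0.60), 2 (0.78) or 3 (0.82), without PPCL-68 EV replicate 2 (0.61) or 3 (0.65), with no filter, with only these 2 groups in the fit and with the replicate block. LMNA passed without PANC-1 EV replicate 3 (-0.48), from -0.38 (SE 0.11, adjusted p = 0.0622) with all libraries.

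Across the 8 groups the genes ranked in different orders. Mean LMNB1 ran from 42.4 ± 0.444 FPKM in untreated HPDE through 38.8 ± 0.592 in residual medium and 18.5 ± 0.696 with PANC-1 EV (SD, n = 3). HPNE in residual medium followed at 17.3 ± 8.74, overlapping HPDE with vesicles of both types (PPCL-68 EV at 16.3 ± 0.374). The other HPNE groups, 5.13 ± 2.74 untreated, 3.33 ± 1.31 with PPCL-68 EV and 3.05 ± 0.498 with PANC-1 EV, were lowest and overlapped one another. LMNA was highest in untreated HPNE at 249 ± 3.94 FPKM and lowest in HPNE with PPCL-68 EV at 106 ± 3.26, which overlapped HPDE with PANC-1 EV (107 ± 4.07). The next highest groups, HPNE in residual medium (192 ± 10.1) and untreated HPDE (185 ± 5.85), overlapped. HMGA2 was highest in HPDE with PPCL-68 EV at 176 ± 3.27 FPKM and lowest in untreated HPNE at 27.3 ± 2.47. HPDE untreated (137 ± 4.14) and with PANC-1 EV (135 ± 1.69) overlapped in between.

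Whether the PPCL-68 EV effect against untreated cells differed between the lines was tested directly, and 5 of 9 genes passed beside 38.4% of 10483 genes. Differences are the HPDE effect minus the HPNE effect on the log2 scale, by limma. LMNA fell further in HPNE, with a difference of 0.62 (SE 0.12, adjusted p = 0.000338), and HMGA2 rose further there, with -1.39 (SE 0.20, adjusted p = 2.61e-05). LMNB2 fell in HPDE and differed by -0.0078 in HPNE, a difference of -0.94 (SE 0.29, adjusted p = 0.0148) between the lines. TMPO at -0.82 (SE 0.32, adjusted p = 0.0486) and HMGB2 at -0.95 (SE 0.35, adjusted p = 0.0368) also passed. The TMPO call was lost without 10 of the 12 libraries in turn (over all 12, -0.96 to -0.75) and the HMGB2 call without 9 (-1.09 to -0.81), and both were lost with no filter. The TMPO call was also lost with a pseudocount of 0.1 (-0.83, adjusted p = 0.0574) and with the replicate block (adjusted p = 0.0599, both limma). LMNB1 did not differ past the threshold between the lines, at -0.86 (SE 0.44, adjusted p = 0.122). It passed without untreated HPNE replicate 3 (-1.21) or PPCL-68 EV replicate 1 (-1.15). Against residual medium the picture was another one. There PPCL-68 EV differed by 0.50 in HPNE and 0.56 in HPDE for HMGA2, and by -1.36 and -0.91 for LMNB2. The values were -1.42 and -0.95 for TMPO, -0.85 and -0.43 for LMNA, and 0.054 and -0.089 for HMGB2. Whether these differ between the lines was not tested, and the HPNE residual medium libraries helped choose the set.

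The residual medium effect differed between the lines for 3 of 8 genes, beside 38.1% of all genes. LMNB2 at -1.39 (SE 0.29, adjusted p = 0.00133), TMPO at -1.30 (SE 0.32, adjusted p = 0.00455) and HMGA2 at -1.45 (SE 0.20, adjusted p = 3.11e-05) had risen in HPNE and not in HPDE, by limma. EMD, HMGB1 and HMGB2 passed as well without HPNE residual replicate 3 (-0.33, -0.89 and -1.29), under size factors and by voom. EMD also passed without untreated HPNE replicate 3 (-0.30).

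Ratios within a library, which no scaling of the library alters, set the genes against each other. LMNB1 per LMNA was 0.229 ± 0.00840 in untreated HPDE, 0.237 ± 0.0134 in residual medium, 0.172 ± 0.0133 after PANC-1 EV and 0.134 ± 0.00839 after PPCL-68 EV (mean ± SD, n = 3), and each vesicle group lay below both controls without overlap. In HPNE it was 0.0205 ± 0.0107 untreated, 0.0223 ± 0.00476 after PANC-1 EV and 0.0315 ± 0.0124 after PPCL-68 EV, all overlapping, and 0.0890 ± 0.0425 in residual medium. LMNB2 per LMNB1 was 2.70 ± 0.0998 in HPDE residual medium, 3.46 ± 0.227 after PANC-1 EV and 3.40 ± 0.228 after PPCL-68 EV, and both vesicle groups lay above both controls. HMGA2 per HMGA1 was 0.106 ± 0.00484 in untreated HPNE, 0.215 ± 0.0465 in residual medium, 0.170 ± 0.0199 after PANC-1 EV and 0.334 ± 0.0636 after PPCL-68 EV. All 9 treated HPNE libraries exceeded the 3 untreated ones. In HPDE the ratio was 0.103 ± 0.0123 in residual medium and 0.152 ± 0.00524, 0.144 ± 0.00700 and 0.144 ± 0.00181 in untreated, PANC-1 EV and PPCL-68 EV cells. HMGB2 per HMGB1 in HPNE was 0.393 ± 0.0186 untreated, 0.571 ± 0.0207 after PANC-1 EV and 0.697 ± 0.0655 after PPCL-68 EV, and these 3 groups did not overlap. Residual medium, at 0.507 ± 0.102, overlapped the untreated and PANC-1 EV groups.

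**Figure D3:**
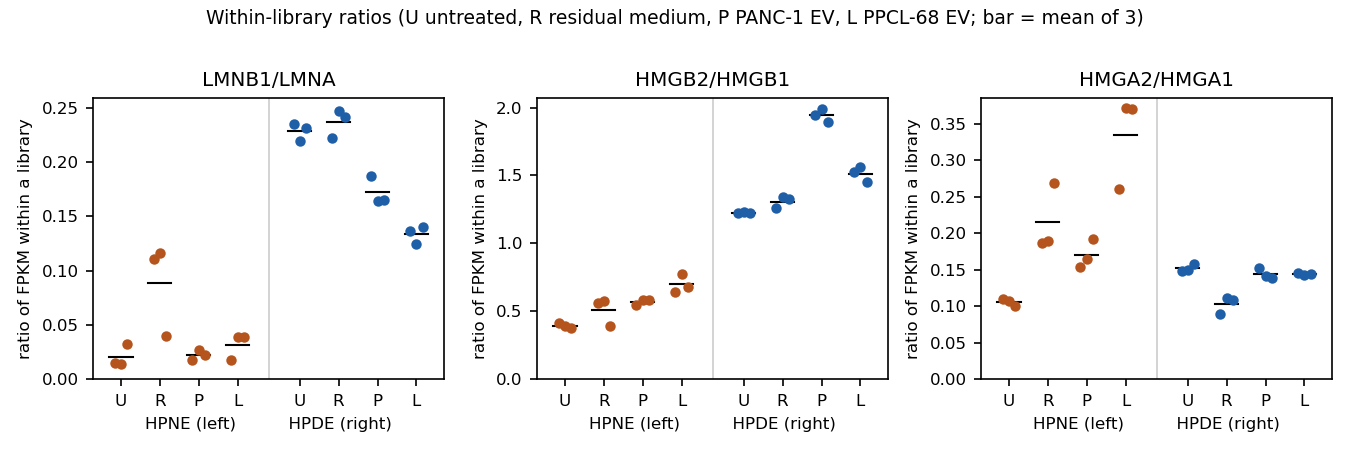
Ratio of FPKM between 2 genes within each library, on linear axes from 0; points are libraries (HPNE orange, HPDE blue) and bars are means of 3. LMNB1 per LMNA went from 0.237 in HPDE residual medium to 0.134 with PPCL-68 EV, HMGB2 per HMGB1 was highest in HPDE with PANC-1 EV at 1.94, and HMGA2 per HMGA1 was highest in HPNE with PPCL-68 EV at 0.334.

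LMNB1, LMNB2, TMPO, HMGB1 and HMGB2 are abundant in dividing cells, so a list of 25 proliferation genes was followed beside them. In HPDE all 25 fell with either vesicle type against residual medium (limma, adjusted p under 0.05; 63.3% and 67.7% of all genes passed in either direction), with medians of -0.63 after PANC-1 EV and -1.002 after PPCL-68 EV on the log2 scale. Thymidylate synthase (TYMS) fell by 1.49 and the ribonucleotide reductase subunit RRM2 by 1.84 with PPCL-68 EV, and the mitotic kinesin KIF20A by 1.28 with PANC-1 EV. MKI67, a nuclear protein of cycling cells, went from 27.4 ± 1.77 FPKM in residual medium to 20.1 ± 1.71 and 12.8 ± 0.956. In HPNE 24 of 25 rose in residual medium against untreated cells (median 1.65; 43.9% of all genes passed) and 25 of 25 fell with PPCL-68 EV against residual medium (median -1.84; 39.9% of all genes passed). These libraries include those that chose the set. With PPCL-68 EV against untreated HPNE, where LMNB1 did not pass either, 1 of 25 passed beside 42.5% of all genes, KIF20A at -1.20 (SE 0.42, adjusted p = 0.0383), and MKI67 differed by -0.40 (SE 0.55, adjusted p = 0.587) by limma.

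LMNB1 and this list moved together in part. In HPNE residual medium the mean log2(FPKM + 1) of the 25 genes was 5.02 and 5.04 in replicates 1 and 2, and 3.34 in replicate 3, the library with the low LMNB1 value. In untreated HPNE it was 2.58, 2.57 and 3.50, and replicate 3 again held the odd LMNB1 value, here the high one. With PANC-1 EV the list means were 2.97, 3.24 and 3.18, above those of untreated replicates 1 and 2, while LMNB1 was 2.83, 3.62 and 2.71 FPKM against 3.65 and 3.43. Untreated and residual replicate 3, at list means near those of PANC-1 EV, had 8.29 and 7.23 FPKM. The PANC-1 EV and residual medium values of LMNB1 chose the set, so this split cannot be read as a result about LMNB1. MCM5, which is on the list, had 5.75, 5.54 and 4.93 FPKM with PANC-1 EV. It had 8.69 FPKM in untreated replicate 3 and 9.35 in residual replicate 3. Of the genes tested in both lines, MCM5 was the one most like LMNB1 over these same libraries. Its values are therefore no separate evidence of the split. MKI67, also on the list, had 2.86 to 4.03 FPKM with PANC-1 EV. That range held the 3.91 FPKM of residual replicate 3 and lay below the 6.78 of untreated replicate 3. In HPDE the list mean was 5.75 to 5.79 over the 6 control libraries, 5.03 to 5.08 after PANC-1 EV and 4.69 to 4.76 after PPCL-68 EV. Untreated and PPCL-68 EV libraries of HPNE had list means in overlapping ranges and LMNA and HMGA2 values that did not overlap. The part of proliferation in these differences was not tested.

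**Figure D4:**
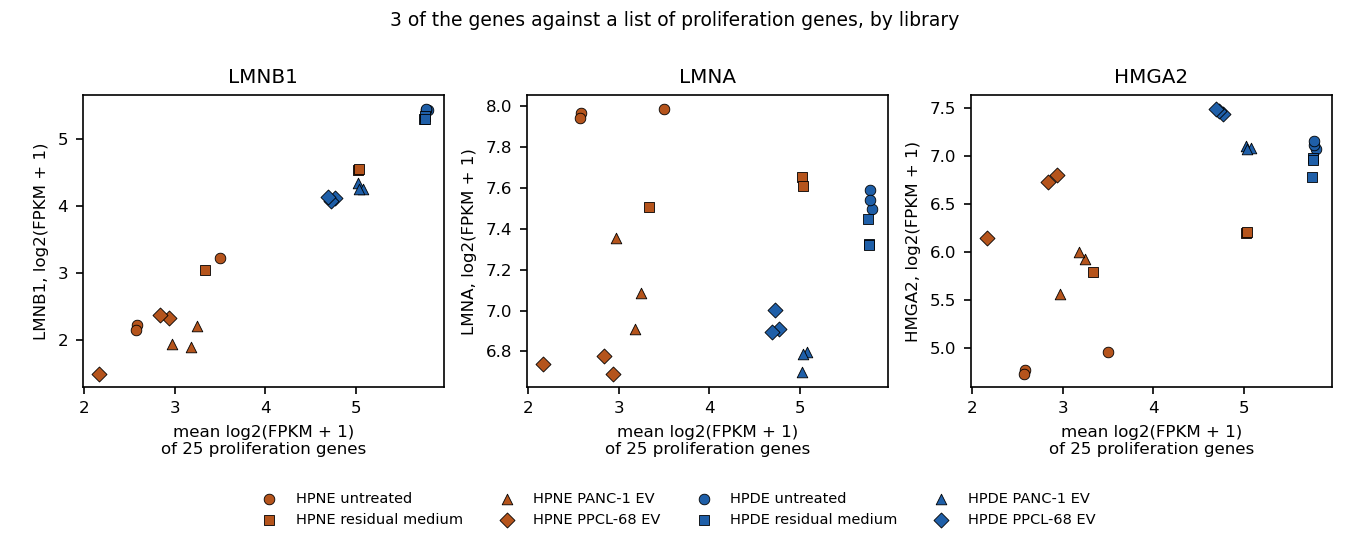
LMNB1, LMNA and HMGA2, each as log2(FPKM + 1), against the mean log2(FPKM + 1) of 25 proliferation genes in the same library; colours are the lines and symbols the treatments. LMNB1 was highest in the HPDE controls and HPNE residual replicates 1 and 2, where the list was high too. At list means of 2.97 to 3.50 in HPNE it ran from 2.71 FPKM in a PANC-1 EV library to 8.29 in an untreated one. The PANC-1 EV and residual medium values of LMNB1 in HPNE chose the set.

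Of 20 other proteins of the nuclear envelope and lamina, 18 could be tested in HPDE and 17 in HPNE. In HPDE 8 rose and 7 fell with PANC-1 EV against residual medium, and 8 rose and 5 fell with PPCL-68 EV, with medians of -0.044 and 0.081. These are 15 and 13 of 18, beside 63.3% and 67.7% of all genes. LBR, the receptor that tethers B-type lamins and heterochromatin to the membrane, had 30.1 ± 1.06 FPKM in residual medium, 17.5 ± 0.578 after PANC-1 EV and 18.4 ± 1.03 after PPCL-68 EV, and fell by 0.75 (SE 0.053, adjusted p = 2.84e-08) and 0.68 (SE 0.053, adjusted p = 4.38e-08) by limma. NRM, nurim of the inner membrane, fell by 1.02 with PPCL-68 EV, while the nesprin SYNE3 rose by 0.63 and 0.67. In HPNE with PPCL-68 EV against untreated cells 3 rose and 2 fell (42.5% of all genes passed), led by ANKLE2, a LEM-domain protein of nuclear envelope reassembly, at 1.16 (SE 0.10, adjusted p = 1.42e-05) by limma. LBR differed there by -0.42 (SE 0.19, adjusted p = 0.0916).

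Enzymes and partners of lamin prenylation moved in both directions. Of 5 tested in HPDE, 2 rose and 3 fell with PANC-1 EV, and 1 rose and 2 fell with PPCL-68 EV, against residual medium, where 63.3% and 67.7% of all genes passed. ICMT, the methyltransferase that caps the prenylated end, fell by 0.39 and 0.47 in HPDE and by 0.74 in HPNE with PPCL-68 EV against residual medium, and the farnesyltransferase subunit FNTA rose in HPDE by 0.40 and 0.32. In HPNE with PPCL-68 EV against untreated cells the protease RCE1 rose by 0.34 and NARF, a prelamin A binding protein, fell by 0.97. Among 12 other HMG-box and nucleosome-binding HMG genes, 7 fell and 0 rose in HPDE with PANC-1 EV, and likewise 7 and 0 with PPCL-68 EV, while HPNE with PPCL-68 EV against untreated cells had 4 lower and 1 higher. The shares of all genes that passed in either direction were 63.3%, 67.7% and 42.5%, so 7 of 12 in HPDE is no more than the background. HMG20B, a subunit of a histone-deacetylating repressor complex, fell by 0.68 and 0.78 in HPDE and by 1.40 in HPNE. SSRP1, of the histone chaperone FACT, fell by 0.68 in HPDE with PPCL-68 EV, and HMGB3 by 0.48 with PANC-1 EV.

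Regulators of HMGA2 mRNA in the let-7 axis were a further list, with 8 tested in HPDE. Against residual medium 5 rose and 0 fell with PANC-1 EV, and 5 rose and 1 fell with PPCL-68 EV. In either direction these counts were near the shares of 63.3% and 67.7% over all genes. Genes called higher alone were 3449 and 3826 of 12223. IGF2BP3, which binds HMGA2 mRNA, had 16.3 ± 1.49 FPKM in residual medium, 28.6 ± 1.16 after PANC-1 EV and 21.5 ± 0.195 after PPCL-68 EV. A link between these values and those of HMGA2 was not tested. In HPNE with PPCL-68 EV against untreated cells 2 of 7 rose, IGF2BP2 by 0.60 and IGF2BP1 by 0.52, where 42.5% of all genes passed. Receptors of extracellular HMGB1 were often too low to test. In HPDE 3 of 6 were tested and 1 rose with each vesicle type against residual medium. In HPNE 2 were tested and 1 rose with PPCL-68 EV against untreated cells. The shares of all genes that passed were 63.3%, 67.7% and 42.5%. Thrombomodulin (THBD), which sequesters HMGB1, had 30.1 ± 1.22 FPKM in HPDE residual medium, 54.8 ± 1.33 after PANC-1 EV and 47.2 ± 0.529 after PPCL-68 EV. TLR2 went from 0.164 ± 0.0630 FPKM in untreated HPNE to 3.63 ± 1.50 with PPCL-68 EV, a log2 difference of 1.95 (SE 0.20). At that untreated level it met the filter of a mean of 1 FPKM only through treated groups. Its rise, the 1 counted above in HPNE, is therefore a description only. In residual medium against untreated HPNE cells 1 of the 2 receptors rose and 1 fell, where 43.9% of all genes passed.

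Patterns over the 12 libraries of each line were compared by Pearson's r of log2(FPKM + 1), as a description over libraries that share treatments. The HPNE values include the PANC-1 EV and residual medium libraries whose LMNB1 values chose the set. With LMNB1, LMNB2 had r = 0.921 in HPNE and 0.989 in HPDE, TMPO 0.928 and 0.943, and HMGB1 0.874 and 0.929. HMGB2 had 0.485 and -0.184, HMGA1 0.464 and -0.278, and HMGA2 0.131 and -0.665. LMNA had 0.451 in HPNE and 0.931 in HPDE, and EMD 0.751 and -0.740. Of 10483 genes tested in both lines, the 5 most like LMNB1 by the lower of the 2 values were MCM5 (0.980 and 0.980), CKS2, KIFC1, CDC20 and FEN1. Those most like LMNA were MVD (0.989 and 0.969), EHD2, ZMYM3, NMT2 and HMGCS1. Those most like HMGA2 were SLC35F5 (0.943 and 0.931), CDH4, DNAJC10, HYOU1 and ATP2A2.

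Some reads could be shared with other genes, since the library kit kept no strand. TMPO-AS1, which overlaps TMPO on the other strand, had at most 1.40 FPKM in any library, and RPSAP52, which overlaps HMGA2, had 3.58 to 10.6 FPKM. TIMM13 overlaps LMNB2 on the same strand and had 17.7 to 51.0 FPKM. The tables list 42 processed copies of HMGB1, with at most 5.21 FPKM each, and 8 of HMGA1, with at most 1.58 FPKM. How the deposited counts split reads between them is not given in the sources used here. In hg19, the build named in the submitters' processing notes, the 9 genes, all annotated as protein-coding, lie as follows. On the plus strand are LMNB1 (chr5:126112315-126172712), LMNA (chr1:156052364-156109880), TMPO (chr12:98909290-98944157), EMD (chrX:153607557-153609883), HMGA1 (chr6:34204650-34214008) and HMGA2 (chr12:66217911-66360075). On the minus strand are LMNB2 (chr19:2427636-2456994), HMGB1 (chr13:31032884-31191734) and HMGB2 (chr4:174252846-174256276).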

How the data were processed

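RNA-seq covered 24 libraries, 3 in each of 8 groups; the labels name total RNA, RNeasy extraction and a NEBNext Ultra II non-directional kit. The authors deposited FPKM values for 48162 genes in each of 24 tables; CASAVA, STAR, HTSeq, DESeq2 and hg19 are named in the submitters' processing notes, without versions or roles. Low values were whole multiples of what 1 read is worth in 100% of values (tolerance 0.05 reads), which gave the reads per gene and depths of 29209142 to 46490312.

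The FPKM values were analysed as log2(FPKM + 1), a scale that understates changes of low genes. The 12 libraries of a line were fitted together with limma 3.58.1 (R 4.3.3; lmFit, then eBayes with a trend; 8 residual degrees of freedom) over genes with a mean of at least 1 FPKM, and p-values were adjusted by Benjamini-Hochberg over all genes tested. Line differences were fitted over all 24 libraries. The genes described and the lists (nuclear envelope partners, lamin prenylation, other HMG proteins, let-7 axis regulators of HMGA2, HMGB1 receptors, proliferation, growth arrest, histones, and epithelial, mesenchymal and other cell markers) were chosen with earlier results of these data known. From each list the 3 genes with the largest change past the threshold could be named, with MKI67 and LBR in every case; overlapping genes and gene copies are named for their position or sequence. HPNE comparisons that share residual medium or PANC-1 EV libraries with the choosing comparison are not independent of it. On simulated data with 200 genes changed 2-fold, PPCL-68 EV against untreated recovered 81.5% in HPNE (11495 genes) and 98.5% in HPDE (12230 genes). It also called 10 unchanged genes in HPNE and 9 in HPDE. Each gene and library was drawn independently, so no simulated library stood apart over all genes. In the data 42.5% and 66.3% of genes passed in these comparisons, so these rates do not give the recovery there.

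Alternatives were a pseudocount of 0.1, no filter, size factors, voom on the recovered reads, only the groups compared, a replicate block, each library left out in turn, and HPNE without the library apart in each group. Replicate numbers in the labels were not taken to pair samples. Deviations from the group means correlated over 0.1 in 9 of 18 HPNE and 1 of 18 HPDE pairs of same-numbered libraries. The HPNE values ran from -0.51 to 0.57 with a mean of 0.027, and the HPDE values from -0.25 to 0.15. Promoter windows came from RefSeq on GRCh38.p14; no coordinate was converted between builds.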

Additional observations from a re-analysis of the deposited data

Results flagged for a closer look

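These 8 values were picked out because an effect differed between the lines by a test of the difference itself (limma, adjusted p under 0.05, over 3 libraries per group). Each is the HPDE effect minus the HPNE effect on the log2 scale. For PPCL-68 EV against untreated cells they were LMNA at 0.62, HMGA2 at -1.39, LMNB2 at -0.94, HMGB2 at -0.95 and TMPO at -0.82. Against untreated cells LMNA fell and HMGA2 rose in both lines, each by more in HPNE. LMNB2 and TMPO fell in HPDE and did not pass in HPNE, and HMGB2 rose in HPNE and did not pass in HPDE. The TMPO call between the lines was lost in 13 of 19 alternatives and the HMGB2 call in 10 of 19. In HPNE the HMGB2 rise lost its call in 6 of 13. Against residual medium HMGA2 differed by 0.50 in HPNE and 0.56 in HPDE. LMNB2 differed there by -1.36 and -0.91, TMPO by -1.42 and -0.95, LMNA by -0.85 and -0.43 and HMGB2 by 0.054 and -0.089. The lines were not compared by a test against residual medium. For residual medium against untreated cells the flagged values were LMNB2 at -1.39, TMPO at -1.30 and HMGA2 at -1.45, all 3 with a rise in HPNE. The HPNE residual medium libraries are among those whose LMNB1 values chose the set. No group of 3 libraries was tested for single outlying values.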

How the results depend on the processing

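In HPDE, 108 of 108 values for PPCL-68 EV against residual medium and 105 of 108 for PANC-1 EV kept their direction and side of the threshold over the alternatives. HPNE counts moved most. Without the library apart in each group (fewer samples, with the spread narrowed by construction), the genes past the threshold went from 3 to 8 of 8 for PPCL-68 EV against residual medium, from 5 to 8 for residual medium against untreated, from 2 to 6 for PANC-1 EV and from 3 to 6 of 9 for PPCL-68 EV against untreated, from 1 to 7 between the vesicle types, and from 3 to 7 for the line difference in residual medium. Calls over all genes rose as well, to 65.7%, 71.7%, 62.7%, 69.6%, 36.5% and 64.6% in that order. That last count was 6 under size factors and by voom. Leaving out each library in turn gave 3 to 6, 3 to 8 and 0 to 1 for PPCL-68 EV against residual medium, residual medium against untreated and the vesicle types in HPNE, 2 to 3 (from 4) for residual medium against untreated in HPDE, and 3 to 6 for each line difference. With no filter the line difference in PPCL-68 EV went from 5 to 3 and the count between vesicle types in HPNE to 0, as it did with only those groups fitted. With the replicate block it was also 0, residual medium against untreated in HPDE had 3 and the line difference in PPCL-68 EV had 4, and no other count moved; the numbers are not known to pair the samples. The causes of these moves were not tested.

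Signs turned only in differences that had not passed or were given without a test. Without the libraries apart, HMGA1 was -0.17 for PANC-1 EV and HMGB2 -0.29 for PPCL-68 EV against residual medium in HPNE, EMD 0.11 and HMGB1 0.028 for PANC-1 EV and LMNB1 0.16 and LMNB2 0.30 for PPCL-68 EV against untreated, and HMGA1 -0.33 for the line difference in residual medium. Under size factors and by voom, EMD was 0.051 and 0.020 and LMNB2 0.077 and 0.055 in the HPNE comparisons just named, and HMGA2 0.018 and 0.015 for PANC-1 EV against untreated in HPDE. Leaving out single libraries, the ranges that crossed 0 in HPNE were HMGA1 -0.23 to 0.24 (PANC-1 EV against residual), HMGB2 -0.43 to 0.32 and HMGA1 -0.45 to 0.022 (PPCL-68 EV against residual), EMD -0.085 to 0.080 (PANC-1 EV against untreated), LMNB2 -0.11 to 0.18 (PPCL-68 EV against untreated) and LMNB1 -0.11 to 0.34 (between vesicle types). In HPDE they were EMD -0.0018 to 0.059 and HMGB2 -0.0018 to 0.085 (residual against untreated) and HMGB2 -0.11 to 0.027 (PPCL-68 EV against untreated), and HMGA1 had -0.22 to 0.25 for the line difference in residual medium. Over all genes, size factors moved the split for residual medium against untreated in HPNE from 2153 higher and 2899 lower to 3329 and 2085, and the median from -0.048 to 0.063. The split went from 1105 and 1325 to 1509 and 1079 for PANC-1 EV against untreated in HPNE, from 2151 and 2740 to 2826 and 2296 for PPCL-68 EV, from 1599 and 1185 to 1341 and 1850 for PANC-1 EV against residual medium, from 2038 and 1957 to 1706 and 2660 for the line difference in residual medium, and from 7415 and 3708 to 5829 and 5033 between the untreated lines. Depth limits LMNB1 in HPNE most, at 240 reads in its lowest library.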

Other observations

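Genes of growth arrest moved in several directions beside the lamins. Of 13 CDK inhibitors and secreted factors linked to arrested cells, 6 rose and 3 fell of 13 tested in HPDE with PANC-1 EV against residual medium, and for PPCL-68 EV 5 rose and 5 fell of 13 tested (limma, adjusted p under 0.05), near the shares of 63.3% and 67.7% over all genes. The CDK4 and CDK6 inhibitor CDKN2C fell by 0.95 and 1.12 on the log2 scale, while CDKN1A (p21) rose by 0.81 with PPCL-68 EV. In HPNE with PPCL-68 EV against untreated cells 5 rose and 3 fell of 12 tested (42.5% of all genes passed), led by the chemokine gene IL8 at 9.26 and the cytokine gene IL1B at 4.98. Residual medium alone gave 6 higher and 5 lower of 12 in HPNE, with IL8 at 8.43, and 8 higher and 1 lower of 13 in HPDE, with IL8 at 2.54, where 43.9% and 20.0% of all genes passed.

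The linker histone gene H1F0, known from cells that have left the cycle, rose in HPDE with both vesicle types against residual medium. In HPNE it rose with PPCL-68 EV against untreated cells, a comparison that does not set vesicles apart from residual medium. It had 258 ± 13.4 FPKM in HPDE residual medium, 729 ± 26.8 after PANC-1 EV and 620.0 ± 28.1 after PPCL-68 EV (mean ± SD, n = 3), log2 differences of 1.50 (SE 0.058, adjusted p = 5.7e-11) and 1.26 (SE 0.058, adjusted p = 1.83e-10) by limma. In HPNE it had 54.5 ± 7.15 FPKM untreated and 241 ± 12.3 with PPCL-68 EV, 2.13 (SE 0.15, adjusted p = 3.9e-06) by limma. Over the 7 histone genes listed, 3 rose and 4 fell with each vesicle type in HPDE, and 3 rose and 1 fell in that HPNE comparison, under the same shares of all genes.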
